A study of Homo sapiens with 6 samples.

Results

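The Notch receptor genes NOTCH1, NOTCH2 and NOTCH3 and the Notch ligand genes DLL1, DLL3, DLL4, JAG1 and JAG2 were examined in peak lists from chromatin immunoprecipitation followed by sequencing (ChIP-seq). Intervals were taken by position: a distinct peak interval was included when it lay in 1 of these 8 hg19 gene intervals or within 50 kb of it. Of the 271093 distinct intervals in the 4 lists, 348 were included, over windows that sum to 1.14 Mb. They were 52 of 49597 LSD1 peaks with inhibitor, 55 of 45188 LSD1 peaks with DMSO, 112 of 81619 H3K4me2 intervals and 129 of 94689 H3K4me1 intervals.

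All libraries came from the established human line NCI-H526 (small cell lung cancer), which the labels call epithelial and give as passaged multiple times. LSD1 was mapped in cells treated with the LSD1 inhibitor GSK2879552 (GSK552 in the labels; 1 µM for 24 hours) and in cells treated with DMSO, the vehicle, while H3K4me2 and H3K4me1 were mapped with DMSO. The design sets LSD1 with inhibitor against LSD1 with DMSO, and both against the DMSO marks. Each group was 1 library of 1 cell line, so no difference between lists has a replicate check and no p-value is given. In such bulk libraries, more cells with a bound site and more binding per cell cannot be told apart.

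Notch receptors are membrane proteins that ligands on neighbouring cells activate by cell contact, after which the receptor is cut and its intracellular part enters the nucleus, where it acts with the DNA-binding protein RBPJ. DLL1, DLL4, JAG1 and JAG2 activate receptors, whereas DLL3 is known as a divergent ligand that inhibits signalling within its own cell. In lung, Notch signalling restrains the neuroendocrine fate, and DLL3 is often high in neuroendocrine small cell lung cancer. LSD1 (KDM1A) removes methyl groups from H3K4me2 and H3K4me1; H3K4me2 marks promoters and enhancers, and H3K4me1 is common at enhancers.

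RefSeq promoter sequences were at hand for 6 of the 8 genes, not for DLL1 and DLL3. The 250 bases before the RefSeq start are shown for 4 genes whose starts differed in LSD1 or marks. NOTCH1 had the highest-scoring LSD1 peak with inhibitor, and NOTCH3 had no H3K4me1 near the start. JAG1 and DLL4 had H3K4me2, mapped with DMSO, over the start, and LSD1 over or beside it in both LSD1 libraries. Capitals mark the GC box GGGCGG on either strand, and neighbouring copies can overlap.
NOTCH1, GRCh38.p14 chr9:136546049-136546298, minus strand: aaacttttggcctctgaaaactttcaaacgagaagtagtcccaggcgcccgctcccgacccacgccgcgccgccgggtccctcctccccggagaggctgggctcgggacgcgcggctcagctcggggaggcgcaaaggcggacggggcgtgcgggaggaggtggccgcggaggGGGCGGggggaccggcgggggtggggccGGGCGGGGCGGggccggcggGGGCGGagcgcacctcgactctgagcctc
NOTCH3, GRCh38.p14 chr19:15200996-15201245, minus strand: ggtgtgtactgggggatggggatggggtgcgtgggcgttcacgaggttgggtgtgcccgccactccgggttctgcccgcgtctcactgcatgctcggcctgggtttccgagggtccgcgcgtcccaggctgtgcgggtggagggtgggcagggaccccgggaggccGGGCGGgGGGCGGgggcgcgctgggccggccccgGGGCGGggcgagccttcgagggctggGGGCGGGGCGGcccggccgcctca
DLL4, GRCh38.p14 chr15:40929090-40929339, plus strand: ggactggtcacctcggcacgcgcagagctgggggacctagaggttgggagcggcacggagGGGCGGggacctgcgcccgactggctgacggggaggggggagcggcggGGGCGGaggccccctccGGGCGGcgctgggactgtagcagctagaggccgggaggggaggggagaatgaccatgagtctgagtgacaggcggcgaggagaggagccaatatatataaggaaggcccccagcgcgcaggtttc
JAG1, GRCh38.p14 chr20:10674000-10674249, minus strand: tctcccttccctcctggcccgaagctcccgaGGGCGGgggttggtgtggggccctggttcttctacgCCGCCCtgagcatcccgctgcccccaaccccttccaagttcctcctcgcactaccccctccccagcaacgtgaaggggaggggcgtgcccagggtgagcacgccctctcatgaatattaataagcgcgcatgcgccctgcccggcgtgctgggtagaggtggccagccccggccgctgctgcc

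The promoters held 33 CpG in NOTCH1, 28 in NOTCH3, 20 in DLL4 and 17 in JAG1, against a median of 11 in the 250 bases of all 35116 RefSeq promoters. NOTCH2 held 29 and JAG2 38 CpG, the highest of the 6. The GC box occurred 4 times in NOTCH1, 5 times in NOTCH3, 3 times in DLL4, 2 times each in JAG1 and JAG2 and 1 time in NOTCH2, and at least 1 copy was found in 42.6% of all promoters. The RBPJ core TGGGAA, the E-box CAGCTG and the TATA box TATAAA, searched on both strands, were absent from these letters in all 6 promoters. They were found in 20.8%, 14.0% and 10.7% of all promoters. Only these exact letters were searched, so a variant such as tatataag, present in the DLL4 sequence, was not counted. The sequences are on another build than the peaks, so no peak was placed on a base of them.

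**Figure D1:**
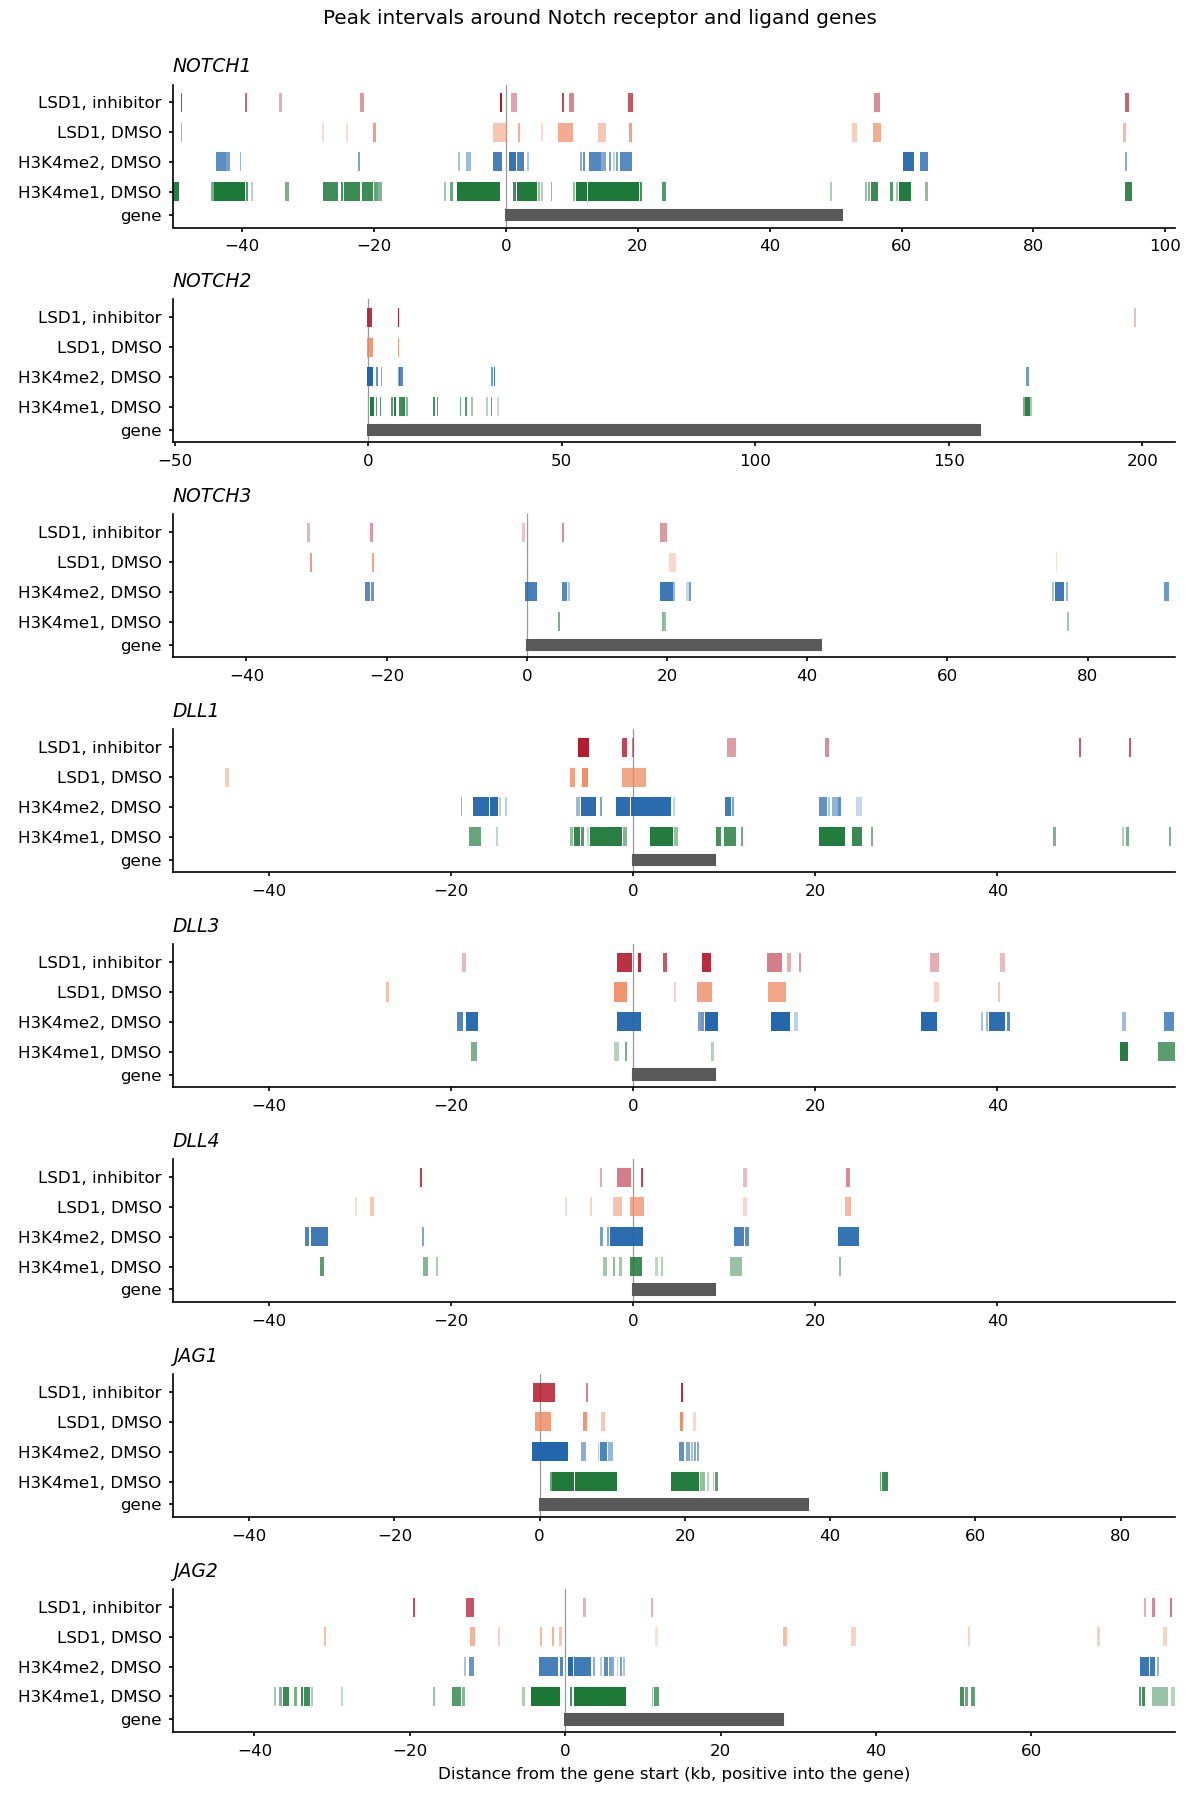
Peak intervals around each of the 8 genes, by distance from the gene start in kb, with positive distances into the gene. Rows are LSD1 with inhibitor, LSD1 with DMSO, H3K4me2 and H3K4me1, darker colour is a higher score percentile within the list, short intervals are drawn at a small minimum width, and the grey bar is the gene; H3K4me1 lies densely over NOTCH1 and is nearly absent around NOTCH3.

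Distances below are from the gene start, the end of the gene interval at which transcription begins. That interval was given to 1 kb, so distances under 1 kb are approximate. Fold enrichment and −log10 q are the authors' values for each peak, and the score percentile is the peak's place in its own list, with 100 the highest. Peaks are ranked by score, which need not follow the fold. These values describe peaks within a list, and MACS2 averages them over the length of a broad peak. The windows also hold 18 other protein-coding genes in the RefSeq order of genes, so a peak in a window was not assigned to the Notch gene.

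NOTCH1 (chromosome 9, 139389000 to 139440000, minus strand) is the receptor with the most intervals. Its window held 11 LSD1 peaks with inhibitor and 13 with DMSO, with 21 H3K4me2 and 34 H3K4me1 intervals. The highest-scoring LSD1 peak of all 8 windows with inhibitor lay just upstream of its start, at 139440575 to 139440918. This peak was 344 bp wide, with a fold of 10.98, a −log10 q of 20.4 and rank 106 of 49597. The DMSO peak that it overlapped, 139439906 to 139441896, was 1991 bp wide, with a fold of 3.29, a −log10 q of 1.52 and a score percentile of 30.0. LSD1 was thus listed at or beside this start in both libraries, as a narrow, high-ranking peak with inhibitor and a broad, low-ranking one with DMSO. The values are averages over peaks of unlike width, so a difference in binding is not shown. Each list had 1 more peak within 2 kb, inside the gene: 139438268 to 139439264 with inhibitor (fold 3.45) and 139437878 to 139438096 with DMSO (fold 3.81), which did not overlap each other.

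The NOTCH1 start itself lay between intervals of the marks. H3K4me2 flanked it at 139438460 to 139439499 (fold 13.2) and 139437197 to 139438358 (fold 10.3) inside the gene and at 139440596 to 139441906 (fold 7.84) upstream. H3K4me1 flanked it at 139438400 to 139438995 (fold 6.09) and 139435224 to 139438322 (fold 13.6) inside and at 139440823 to 139447459 upstream, a 6637 bp interval with a fold of 13.6. The highest-scoring H3K4me1 interval of the window, 139419760 to 139427584, was 7825 bp wide, with a fold of 17.6 and a score percentile of 98.9, inside the gene. The next, 139427666 to 139429375, had a higher fold of 18.1 and a score percentile of 98.8. Neither LSD1 list had a peak in this second interval. Both had a peak in the 7825 bp interval, at 139420694 to 139421412 with inhibitor (fold 4.46) and at 139420923 to 139421393 with DMSO (fold 4.29). A further DMSO peak in that interval, 139424839 to 139425968 (fold 3.52), overlapped no inhibitor peak. H3K4me1 covered 30.3% of the gene interval and H3K4me2 16.7%.

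Most LSD1 peaks in the NOTCH1 window lay on H3K4me1: 8 of 11 with inhibitor, against 39.5% of the whole list, and 11 of 13 with DMSO, against 41.5%. On H3K4me2 lay 5 in each list, against 52.9% of all inhibitor and 50.4% of all DMSO peaks. The highest-scoring H3K4me2 interval was not at the start but 61.1 kb from it, past the far end of the gene, at 139378038 to 139379727 (fold 16.0), where neither LSD1 list had a peak. The highest-scoring DMSO peak, 139489066 to 139489330 (fold 4.24), lay at the upstream edge of the window without a mark and was also listed with inhibitor (fold 4.38). The highest-scoring LSD1 peak of 1 list alone was 139479301 to 139479520 with inhibitor (fold 4.07) and 139459631 to 139460156 with DMSO (fold 4.23), both on H3K4me1 upstream of the gene.

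NOTCH2 (chromosome 1, 120454000 to 120612000, minus strand) is the longest gene of the set and had few LSD1 peaks: 3 with inhibitor and 2 with DMSO over 258 kb. LSD1 covered its start in both lists, at 120611096 to 120612364 with inhibitor (fold 4.25, −log10 q 5.58) and at 120610767 to 120612317 with DMSO (fold 4.10, −log10 q 3.40). The start also carried the highest-scoring H3K4me2 interval of all windows, 120610664 to 120612306, with a fold of 23.3, 11 summits and rank 376 of 81619. H3K4me1 began 536 bp inside the start, at 120610628 to 120611464 (fold 11.8). Weaker intervals of both marks lay further inside, H3K4me2 at 120609615 to 120610071 (fold 7.75) and H3K4me1 at 120609883 to 120610096 (fold 5.71). All 4 lists therefore met within 1 kb of this start.

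The other shared LSD1 site of NOTCH2 lay 7.68 kb into the gene, at 120604221 to 120604426 with inhibitor (fold 4.15, −log10 q 9.05) and at 120604132 to 120604412 with DMSO (fold 2.99, −log10 q 2.94). At the DMSO peak the score percentile was 76.6 and the fold percentile 3.18. RefSeq lists 4 NOTCH2NL genes on chromosome 1, which are partial copies of the first part of NOTCH2, and the sources used here do not say how reads shared with them were placed, so values in the first part of this gene are uncertain. The inhibitor-only peak, 120413695 to 120414152 (fold 3.03, without a mark), had a score percentile of 2.64. No DMSO peak of this window was missing with inhibitor. Of the 20 H3K4me1 intervals, 17 lay in the gene, but they covered 3.81% of it.

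NOTCH3 (chromosome 19, 15270000 to 15312000, minus strand) had the lowest-scoring LSD1 peak at a start and the least H3K4me1. LSD1 was listed near its start with inhibitor alone, at 15312197 to 15312627, with a fold of 3.42, a −log10 q of 1.14 and a score percentile of 0.978, close to the bottom of the list. The nearest DMSO peak lay 20.3 kb into the gene. H3K4me2 covered the start at 15310610 to 15312246 (fold 9.88), and the nearest H3K4me1 interval, 15307300 to 15307513 (fold 4.99), lay 4.49 kb inside it and was the highest-scoring of 4 in the window. H3K4me1 covered 1.62% of the gene.

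The highest-scoring H3K4me2 interval at NOTCH3 lay inside the gene at 15291186 to 15292931 (fold 13.2), and each LSD1 list had a peak on it, but not at the same bases. The inhibitor peak was 15291934 to 15292956 (fold 3.64) and the DMSO peak 15290780 to 15291703 (fold 3.27), so under the overlap rule each counted as present in its list alone. The highest-scoring inhibitor-only peak was 15306649 to 15307049 (fold 3.80), on H3K4me2, which was also the highest-scoring with inhibitor in the window. With DMSO the highest-scoring peak, 15342696 to 15342895 (fold 4.37), lay 30.8 kb upstream without a mark. It counted as shared, but the inhibitor peak, 15342890 to 15343414 (fold 3.37), overlapped it only at the edge.

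DLL1 (chromosome 6, 170591000 to 170600000, minus strand), an activating ligand, had LSD1 at its start in both libraries. With inhibitor there were 2 peaks, 170599933 to 170600086 (fold 3.62) and 170600694 to 170601205 (fold 4.29). With DMSO a single peak of 2625 bp, 170598604 to 170601228 (fold 3.84), overlapped both. H3K4me2 covered or flanked the start in 2 wide intervals, 170595807 to 170600195 (fold 17.5) and 170600280 to 170601880 (fold 16.1), and covered 48.6% of the gene, the highest share of the 8. H3K4me1 lay to either side, at 170595650 to 170598105 (fold 11.2) inside and at 170600715 to 170601083 (fold 4.75) and 170601247 to 170604726 (fold 10.6) upstream. FAM120B overlaps DLL1 in RefSeq, so intervals on DLL1 cannot be told apart by gene.

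The highest-scoring LSD1 site of the DLL1 window lay 5.46 kb upstream with inhibitor, at 170604860 to 170606054, with a fold of 6.95, a −log10 q of 10.5 and a score percentile of 97.4. The DMSO peak there, 170604890 to 170605591, had a fold of 5.07, a −log10 q of 4.86 and a score percentile of 92.0, and was also the highest-scoring of its list in the window. Both overlapped both marks. The DMSO-only peak next to it, 170606326 to 170606911 (fold 4.30), lay on H3K4me1. The highest-scoring inhibitor-only peak, 170545346 to 170545510 (fold 4.44), was unmarked, 54.6 kb away on the downstream side. The highest-scoring H3K4me2 interval, 170614828 to 170615684 (fold 20.6), lay 15.3 kb upstream without LSD1 in either list.

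DLL3 (chromosome 19, 39990000 to 39999000, plus strand), the inhibitory ligand, had 15 H3K4me2 and 6 H3K4me1 intervals in its window. Of these, 4 and 1 touched the gene. LSD1 lay upstream of its start in both libraries, at 39988214 to 39989841 with inhibitor (fold 4.78, −log10 q 5.79) and at 39987910 to 39989285 with DMSO (fold 4.30, −log10 q 4.38). With inhibitor a second peak, 39990567 to 39990892, lay 567 bp inside the start, with a fold of 5.50, a −log10 q of 6.66 and a score percentile of 90.3. No DMSO peak overlapped it, and it was the highest-scoring inhibitor-only LSD1 peak of the 8 windows. H3K4me2 covered the start and both inhibitor peaks in part, at 39988229 to 39990857 (fold 12.7), whereas H3K4me1 near the start was weak, at 39989078 to 39989318 (fold 3.18) and 39987910 to 39988409 (fold 3.81).

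Another shared LSD1 site lay at the far end of DLL3, at 39997562 to 39998611 with inhibitor (fold 4.65) and 39997040 to 39998672 with DMSO (fold 3.49), on both marks. The highest-scoring H3K4me2 interval, 40005159 to 40007273 (fold 22.0, score percentile 99.1), lay past the end of DLL3 without H3K4me1, where the window also holds SELENOV, EID2B and EID2. LSD1 was listed there with inhibitor (40004749 to 40006299, fold 3.48) and with DMSO (40004775 to 40006789, fold 3.71). The DMSO-only peak of highest score, 39962874 to 39963180 (fold 3.36), was unmarked. The highest-scoring H3K4me1 interval, 40043439 to 40044375 (fold 9.69), lay 53.9 kb past the start.

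DLL4 (chromosome 15, 41222000 to 41231000, plus strand), a ligand prominent in blood vessels, had LSD1 at the start in both libraries, at 2 of its 6 inhibitor peaks and 2 of its 8 DMSO peaks. With inhibitor the peaks near the start were 41220239 to 41221812 (fold 3.77) and 41222857 to 41223087 (fold 4.56). With DMSO they were 41219833 to 41220832 (fold 3.41) and 41221681 to 41223189 (fold 3.82), the second of which overlapped both inhibitor peaks. H3K4me2 covered the region in a 3672 bp interval with 14 summits, 41219471 to 41223142 (fold 16.1), and H3K4me1 covered the start at 41221661 to 41222963 (fold 6.89), the highest-scoring interval of each mark in the window. Weak H3K4me1 intervals lay upstream at 41220443 to 41220825 (fold 4.11) and 41219797 to 41220055 (fold 4.19). The highest-scoring peaks of 1 list alone, 41198638 to 41198817 with inhibitor (fold 4.14) and 41193152 to 41193549 with DMSO (fold 3.44), were upstream and unmarked. The inhibitor peak was also the highest-scoring of its list in the window, while the peak inside the start had the higher fold.

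JAG1 (chromosome 20, 10618000 to 10655000, minus strand) had every LSD1 peak inside or across the gene, 3 with inhibitor and 5 with DMSO, and each inhibitor peak overlapped a DMSO peak. LSD1 covered the start at 10652945 to 10655890 with inhibitor (2946 bp, fold 4.75, −log10 q 4.72) and at 10653384 to 10655573 with DMSO (2190 bp, fold 3.99, −log10 q 2.98). H3K4me2 covered the start in a 4999 bp interval with 15 summits, 10651059 to 10656057, with a fold of 20.8 and a score percentile of 99.2. H3K4me1 was absent from the start itself and began 1398 bp inside it, in an interval of 258 bp (fold 4.42) followed by 10650320 to 10653260 (fold 12.8).

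The LSD1 site of higher score, though not of higher fold with inhibitor, lay 19.6 kb into JAG1, at 10635252 to 10635603 with inhibitor (fold 4.62, −log10 q 6.44) and at 10635237 to 10635647 with DMSO (fold 5.14, −log10 q 5.87), on both marks. The DMSO peak ranked 2309 of 45188, the highest-scoring DMSO LSD1 peak of the 8 windows. Another shared site lay 6.44 kb into the gene, at 10648482 to 10648638 with inhibitor (fold 3.51) and 10648421 to 10649042 with DMSO (fold 4.69), under the widest H3K4me1 interval of the window, 10644411 to 10650151 (5741 bp, fold 13.8). The DMSO-only peak of highest score, 10646028 to 10646593 (fold 3.45), lay under the same H3K4me1 interval. H3K4me1 covered 38.9% of JAG1, the highest share of the 8 genes.

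JAG2 (chromosome 14, 105607000 to 105635000, minus strand) had the highest-scoring H3K4me1 of the windows beside LSD1 peaks of middling or low score. The H3K4me1 interval just upstream of the start, 105635619 to 105639389, had a fold of 21.1, a −log10 q of 71.9 and rank 217 of 94689. Another inside the gene, 105627181 to 105633824 (6644 bp), had a fold of 17.6, and a small one, 105634179 to 105634434, a fold of 5.77. H3K4me2 was highest-scoring 307 bp inside the start, at 105633967 to 105634693 (fold 15.3), where neither LSD1 list had a peak. Other H3K4me2 intervals near the start were 105631706 to 105633832 (fold 9.73) inside, and 105635308 to 105635726 (fold 7.50) and 105635956 to 105638387 (fold 10.1) upstream.

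With inhibitor no LSD1 peak lay within 2 kb of the JAG2 start, and the nearest, 105632301 to 105632748 (fold 3.01), lay 2.25 kb inside. With DMSO there were peaks at 105635356 to 105635819 (fold 3.29) and 105636505 to 105636740 (fold 3.61), the second of which was the highest-scoring DMSO-only peak, with a score percentile of 53.9. Of the LSD1 peaks in this window, 6 of 7 with inhibitor and 11 of 12 with DMSO were in their list alone, whereas over the whole lists 58.1% of inhibitor and 63.2% of DMSO peaks were shared. The shared site was 105646760 to 105647815 with inhibitor (fold 4.15) and 105646625 to 105647279 with DMSO (fold 3.63), which tied for the highest score among the DMSO peaks of the window and lay on H3K4me2 without H3K4me1. The highest-scoring inhibitor peak, 105654369 to 105654565 (fold 3.95), with a score percentile of 70.3, was inhibitor-only and unmarked, although its fold was below that of the shared peak. JAG2 had the smallest overlap between the LSD1 libraries of the 8 genes.

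**Figure D2:**
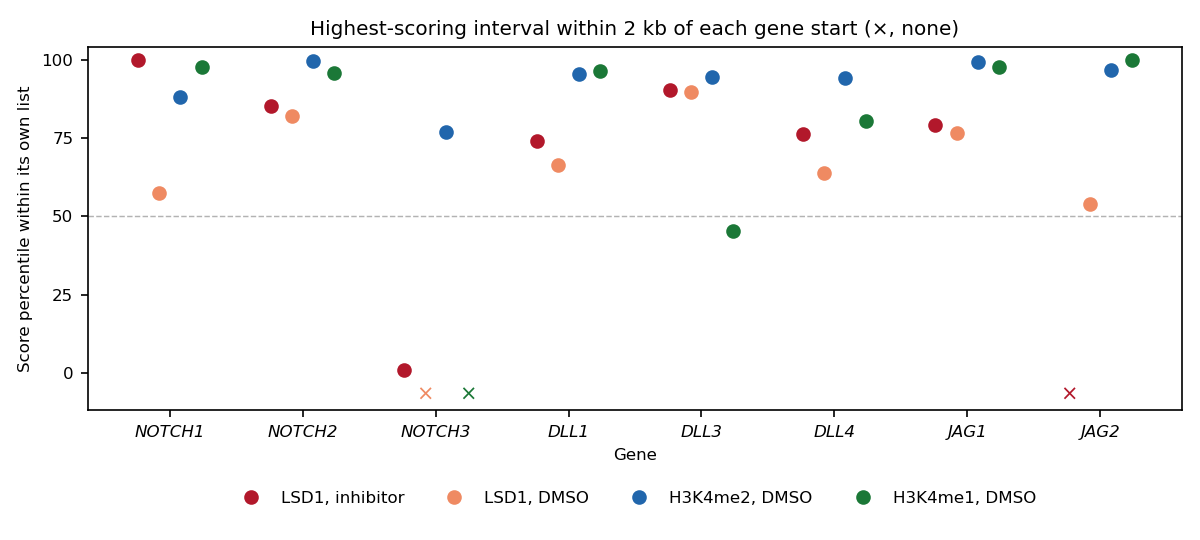
Score percentile, within its own list, of the highest-scoring interval within 2 kb of each gene start, by gene and list; a cross marks a start with none and the dashed line the middle of the list. H3K4me2 is present at all 8 starts, and the LSD1 points run from 0.978 for NOTCH3 to 99.8 for NOTCH1 with inhibitor.

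Across the 8 starts, H3K4me2 was within 2 kb of all 8, and LSD1 with inhibitor, LSD1 with DMSO and H3K4me1 were each within 2 kb of 7. The start without LSD1 was JAG2 with inhibitor and NOTCH3 with DMSO, and the start without H3K4me1 was NOTCH3. The score percentile of the highest H3K4me2 interval ran from 76.7 at NOTCH3 to 99.5 at NOTCH2. For LSD1 it ran from 0.978 at NOTCH3 to 99.8 at NOTCH1 with inhibitor and from 53.9 at JAG2 to 89.8 at DLL3 with DMSO. At 6 starts both LSD1 lists had a peak: NOTCH1, NOTCH2, DLL1, DLL3, DLL4 and JAG1. All 11 inhibitor and all 10 DMSO LSD1 peaks near a start overlapped H3K4me2, and 8 of the 11 and 10 of the 10 overlapped H3K4me1. Over the whole lists, 52.9% of inhibitor and 50.4% of DMSO peaks overlapped H3K4me2, and 39.5% and 41.5% H3K4me1; LSD1 peaks near the starts of other genes were not analysed here, so the counts are not shown to be particular to Notch genes. The inhibitor peaks near a start had a median width of 512 bp and the DMSO peaks there 1442.5 bp. Elsewhere in the windows the medians were 430 and 432 bp, and over the whole lists 388 and 471 bp.

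**Figure D3:**
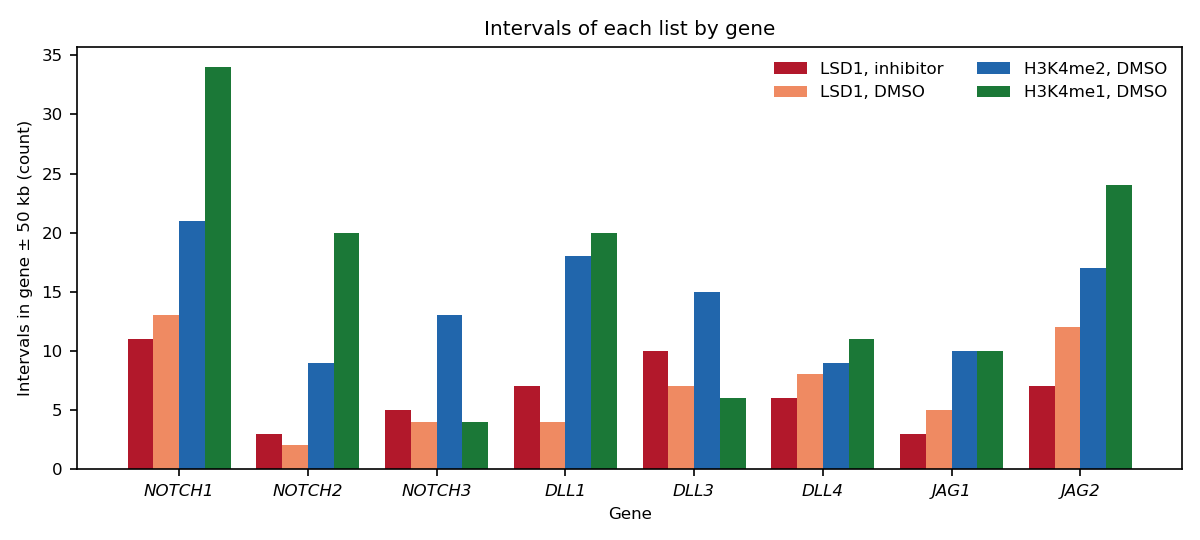
Number of intervals of each list in each gene with 50 kb on either side, as bars that start at 0. NOTCH1 has the most H3K4me1 (34) and NOTCH3 the fewest (4), and NOTCH3 and DLL3 have more H3K4me2 than H3K4me1.

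The windows were dense in all 4 lists. They held 45.5 LSD1 peaks per Mb with inhibitor and 48.1 with DMSO, 98.0 H3K4me2 and 113 H3K4me1 intervals per Mb, against 16.0, 14.6, 26.4 and 30.6 per Mb over the whole chromosomes, which include stretches without genes. Ligand windows together held 5.57 LSD1 peaks per 100 kb with inhibitor and 6.08 with DMSO, and receptor windows together 3.45 with each. The single genes did not divide in this way. The receptor NOTCH1 held 7.28 and 8.61, NOTCH3 3.52 and 2.82, and the ligand JAG1 2.19 and 3.65. The long NOTCH2 window, 258 of the 551 kb of receptor windows, had the fewest, 1.16 and 0.775 per 100 kb. Both values were below the rates over the whole chromosomes. H3K4me2 ran from 3.49 intervals per 100 kb at NOTCH2 to 16.5 at DLL1. H3K4me1 ran from 2.82 at NOTCH3, below the rate over the whole chromosomes, to 22.5 at NOTCH1, a wider range. The order of the genes thus differed between the marks, since NOTCH3 and DLL3 had more H3K4me2 than H3K4me1 intervals, JAG1 had 10 of each, and the other 5 genes had more H3K4me1.

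LSD1 peaks of the windows were compared by score with their whole lists. The median score percentile was 38.4 with inhibitor and 35.7 with DMSO, and peaks above the middle of their list were 22 of 52 (42.3%) with inhibitor, against 49.5% over the whole list, and 22 of 55 (40.0%) with DMSO, against 48.0%. In the top 10% of their list were 4 inhibitor peaks (7.69%, against 9.90% of the list) and 2 DMSO peaks (3.64%, against 9.95%). The 4 were the NOTCH1 start, the DLL1 upstream site, the NOTCH2 site inside the gene and the DLL3 inhibitor-only peak, and the 2 were the JAG1 site inside the gene and the DLL1 upstream site. The median score percentile of the mark intervals was 54.1 for H3K4me2 and 53.6 for H3K4me1. The marks had 16 of 112 H3K4me2 intervals (14.3%, against 10.1%) and 19 of 129 H3K4me1 intervals (14.7%, against 10.0%) in the top 10%.

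**Figure D4:**
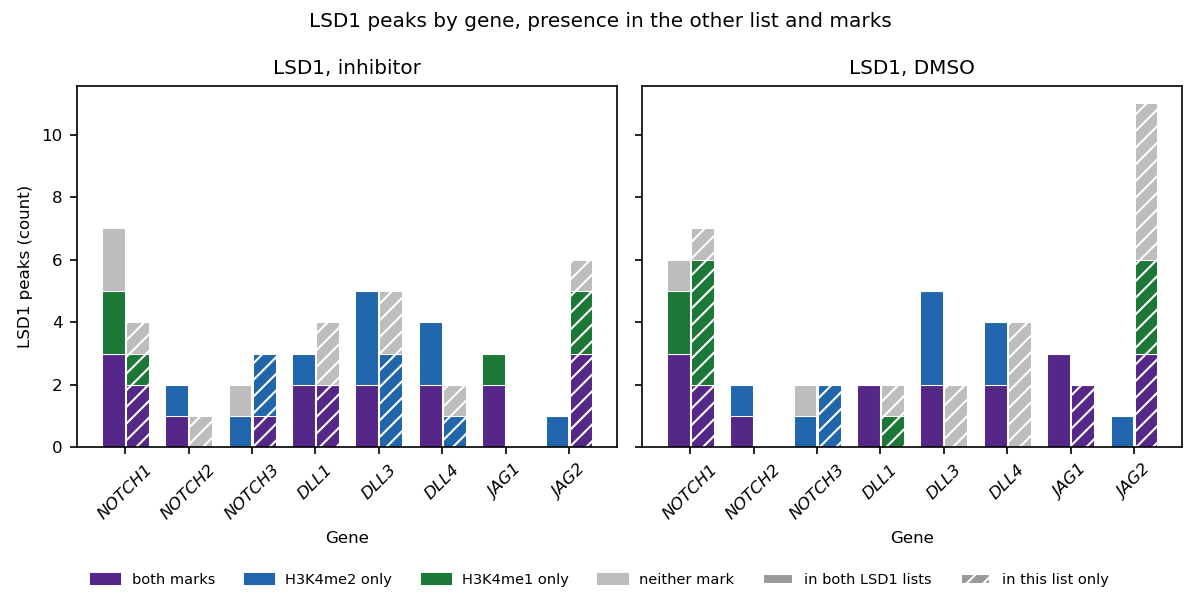
LSD1 peaks of each gene window with inhibitor (left) and with DMSO (right), as counts; plain bars are peaks overlapped by a peak of the other LSD1 list, hatched bars those in that list alone, and colours the marks they overlap. JAG2 with DMSO stands out with 11 peaks in the DMSO list alone.

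The LSD1 libraries were then compared peak by peak, with an overlap of at least 1 bp counted as shared. Of the inhibitor peaks, 27 of 52 were shared (51.9%, 95% Wilson interval 38.7 to 64.9%), against 58.1% of the whole list. Of the DMSO peaks, 25 of 55 were shared (45.5%, 33.0 to 58.5%), against 63.2% of the whole list, a value outside the interval. The share of DMSO peaks was 55.8% without JAG2. The Wilson intervals hold counting error alone, and peaks near one another are not independent draws.

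The shortfall against the whole list lay below the middle of the DMSO list. Above the middle of the DMSO list, 18 of 22 peaks were shared (81.8%), against 80.8% of all such peaks, and below it 7 of 33 (21.2%), against 46.8%. Among inhibitor peaks the shares were 15 of 22 (68.2%, against 72.0%) above and 12 of 30 (40.0%, against 44.4%) below the middle. By gene, all 3 inhibitor peaks were shared at JAG1, 2 of 3 at NOTCH2, 7 of 11 at NOTCH1, 4 of 6 at DLL4, 5 of 10 at DLL3, 3 of 7 at DLL1, 2 of 5 at NOTCH3 and 1 of 7 at JAG2. With DMSO the shared peaks were 2 of 2 at NOTCH2, 5 of 7 at DLL3, 3 of 5 at JAG1, 4 of 8 at DLL4, 2 of 4 at DLL1, 2 of 4 at NOTCH3, 6 of 13 at NOTCH1 and 1 of 12 at JAG2.

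Shared sites formed 28 pairs, since a wide peak can overlap more than 1 peak. The inhibitor peak was the wider in 13 pairs and the DMSO peak in 15. The largest difference in width was at the DLL1 start, where the DMSO peak of 2625 bp overlapped inhibitor peaks of 154 bp and 512 bp. Near a start, 8 of 11 inhibitor and 7 of 10 DMSO peaks were shared, and elsewhere 19 of 41 and 18 of 45, against 58.1% and 63.2% over the whole lists, with no such split for other genes.

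**Figure D5:**
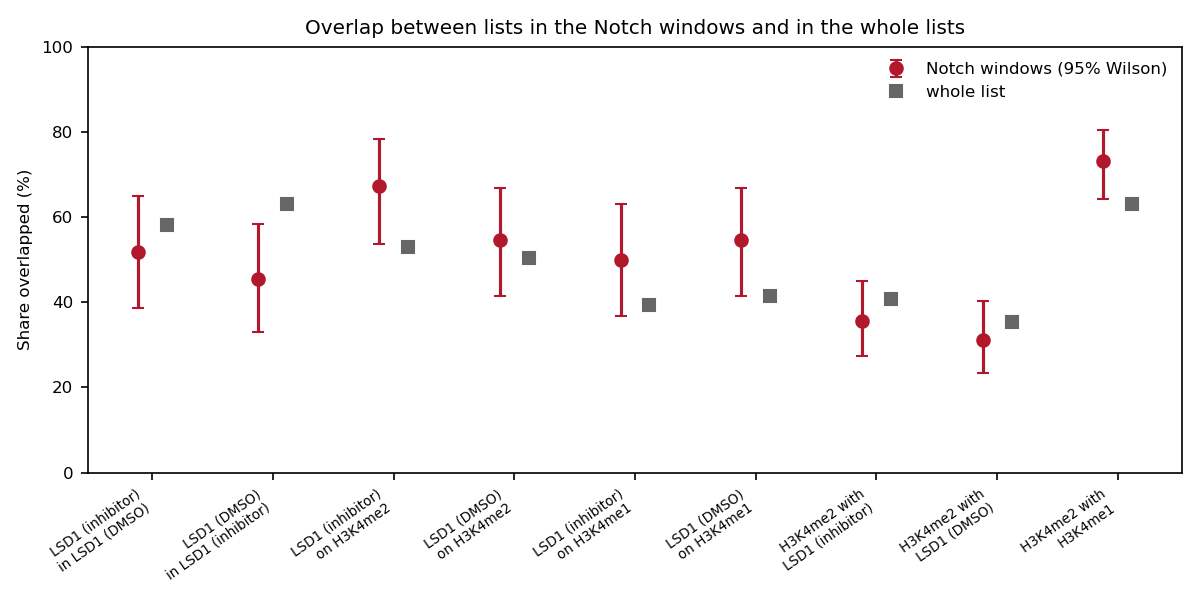
Share of intervals (%) in the 8 windows that an interval of another list overlaps, as circles with 95% Wilson intervals (counting error), beside the same share over the whole list as squares. The windows lie below the whole list for shared LSD1 with DMSO (45.5% against 63.2%) and above it for LSD1 with inhibitor on H3K4me2 (67.3% against 52.9%).

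Set against the DMSO marks, 35 of 52 LSD1 peaks with inhibitor lay on H3K4me2 (67.3%, 53.8 to 78.5%), against 52.9% of the whole list, and 30 of 55 with DMSO (54.5%, 41.5 to 67.0%), against 50.4%. H3K4me1 was overlapped by 26 of 52 with inhibitor (interval 36.9 to 63.1%), against 39.5%, and by 30 of 55 with DMSO (54.5%, 41.5 to 67.0%), against 41.5%. Both marks were found at 20 inhibitor peaks (38.5%, against 30.0%) and 20 DMSO peaks (36.4%, against 31.7%). H3K4me2 alone was found at 15 (28.8%, against 22.9%) and 10 (18.2%, against 18.7%), and H3K4me1 alone at 6 (11.5%, against 9.49%) and 10 (18.2%, against 9.84%). Neither mark was found at 11 inhibitor peaks (21.2%, against 37.6%) and 15 DMSO peaks (27.3%, against 39.8%). Of these unmarked peaks, 3 of 11 with inhibitor were shared (against 44.3% of all unmarked inhibitor peaks) and 2 of 15 with DMSO (against 44.8%), in the NOTCH1 and NOTCH3 windows.

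The DLL3 window held 6 of the 15 inhibitor peaks with H3K4me2 alone, and the NOTCH1 window 6 of the 10 DMSO peaks with H3K4me1 alone. JAG2 and DLL4 together held 9 of the 15 DMSO peaks without a mark, 5 and 4. With inhibitor the share on H3K4me2 was 64.7% outside the gene intervals and 72.2% on them. With DMSO it was 41.7% outside and 78.9% on them. The share on H3K4me1 was 41.2% outside and 66.7% on them with inhibitor, and 38.9% and 84.2% with DMSO. The whole lists were not split in this way.

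From the side of the marks, LSD1 overlapped 40 of 112 H3K4me2 intervals with inhibitor (35.7%, 27.4 to 44.9%), against 40.8% of the whole list, and 35 of 112 with DMSO (31.3%, 23.4 to 40.3%), against 35.4%. The counts at DLL1 were 8 of 18 with inhibitor against 3 with DMSO, while at JAG1 the counts were 2 of 10 and 6. LSD1 overlapped 35 of 129 H3K4me1 intervals with inhibitor (27.1%, against 23.8%) and 29 with DMSO (22.5%, against 23.7%). Of the H3K4me2 intervals, 82 of 112 overlapped H3K4me1 (73.2%, 64.3 to 80.5%), against 63.1% of the whole list. This ran from all 21 at NOTCH1 and all 10 at JAG1 to 2 of 13 at NOTCH3 and 5 of 15 at DLL3. Of the H3K4me1 intervals, 57 of 129 overlapped H3K4me2 (44.2%, 35.9 to 52.8%), against 47.4%.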

How the data were processed

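Peak lists of 4 libraries in NCI-H526 cells were used, each group being 1 library; groups came from the sample descriptions, and the 2 inputs were not used here. Per the submitters' processing notes, the build was hg19 and the tools included BWA, Picard and MACS2 2.0; for their roles, the control input, duplicates and depth, nothing is given here. GEO repeats one treatment text for all samples, taken here to concern the GSK552 libraries alone. The deposited files have no header and were read in MACS2's layout, broad for LSD1 and narrow for the marks. The deposited score is 10 times the −log10 q, the deposited fold enrichment is a ratio over the caller's background, and significance is deposited as −log10 p and −log10 q per peak. The lowest −log10 q is 1.01 for LSD1 with inhibitor and 1.00 with DMSO, while the mark lists reach down to 2.02 (H3K4me2) and 2.01 (H3K4me1), so weak LSD1 peaks are listed where weak mark intervals are not.

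Rows of the mark lists that share an interval were joined, keeping the highest value. Overlap was at least 1 bp, the Wilson level 95%, and the distance from a start 2 kb. No test was run, since no group has a replicate. Overlaps were tested on simulated data and against a count of all pairs in the windows, with equal results. Gene intervals came from the selection rule, strands from textbook knowledge (RefSeq gives the same for the 6 genes in its promoter table), and names of neighbouring genes and promoters from RefSeq on GRCh38.p14, with no coordinates converted. For each gene the text names intervals within 2 kb of the start, the highest-scoring interval of each list and the highest-scoring LSD1 peak of 1 list alone; intervals beyond this rule were chosen after their values were seen. Members and lists were chosen with earlier results of these data known. Other Notch pathway genes were not analysed here, because the gene table is on another build. Alternatives were the top 50% of each list, reciprocal overlap of 50%, centres, LSD1 lists of equal length, the gene interval alone, 20 and 100 kb on either side, starts within 1 or 5 kb, and, added after seeing the data, an LSD1 cutoff at a −log10 q of 2. Python 3.11.15, pandas 2.3.3, numpy 2.4.6, scipy 1.17.1 and matplotlib 3.10.9 were used.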

Additional observations from a re-analysis of the deposited data

How the results depend on the processing

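No paired analysis was possible because there was a single library in every group, with no test. Depth is unknown, so a peak missing from a list is not shown to be absent. Where a value moved, the cause was not tested. For settings that changed the overlap rule or the lists, the whole-list share at that setting is not given here. Such values describe the windows alone and cannot be set against the whole-list shares above. Of 70 alternative values of shares, 42 stayed within the counting interval, including all with LSD1 lists of equal length and with 20 or 100 kb on either side. All 12 alternative counts of gene starts stayed within 1.5 times.

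With a reciprocal overlap of 50%, shared LSD1 was 26.9% with inhibitor and 25.5% with DMSO, LSD1 on H3K4me2 23.1% and 21.8%, LSD1 on H3K4me1 11.5% and 9.09%, H3K4me2 with LSD1 10.7% and 10.7%, and H3K4me2 with H3K4me1 12.5%. By centres, shared LSD1 with DMSO was 32.7%, inhibitor LSD1 on H3K4me2 51.9%, LSD1 on H3K4me1 26.9% with inhibitor and 32.7% with DMSO, H3K4me2 with LSD1 18.8% and 17.9%, and H3K4me2 with H3K4me1 59.8%. In the top 50% of each list, shared LSD1 with DMSO was 59.1%, H3K4me2 with inhibitor LSD1 20.3% and H3K4me2 with H3K4me1 55.9%, from 22 inhibitor and 22 DMSO LSD1 peaks, 59 H3K4me2 and 67 H3K4me1 intervals. In the gene interval alone there were 18, 19, 53 and 49; DMSO LSD1 was on H3K4me2 in 78.9%, LSD1 on H3K4me1 in 66.7% with inhibitor and 84.2% with DMSO, and H3K4me2 with H3K4me1 in 81.1%. With 100 kb on either side there were 80 inhibitor LSD1 peaks, 174 H3K4me2 and 212 H3K4me1 intervals. With an LSD1 cutoff at a −log10 q of 2, chosen after seeing the data, shared LSD1 with DMSO was 77.3%, DMSO LSD1 on H3K4me2 72.7% and on H3K4me1 72.7%, and H3K4me2 with LSD1 23.2% with inhibitor and 17.0% with DMSO.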

Other observations

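LSD1 peaks on neither mark lay at varied distances from the nearest mark interval. The 11 with inhibitor lay 20 to 26548 bp from it, with a median of 1291 bp, and the 15 with DMSO 199 to 25416 bp, with a median of 3604 bp. They were mostly outside the gene intervals, with 2 of 11 and 1 of 15 on one. So were all LSD1 peaks of the windows, with 18 of 52 inhibitor and 19 of 55 DMSO peaks on one. The unmarked inhibitor peaks had a median score percentile of 62.4, against 38.4 for all inhibitor peaks of the windows. The unmarked DMSO peaks had 23.9, against 35.7 for all DMSO peaks of the windows. The score of unmarked peaks over the whole lists was not analysed here, so these medians are not shown to be particular to the windows.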
